A study of Rattus norvegicus with 7 samples.

Results

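The genes described are those whose symbols mark them as translation initiation factors (Eif1 to Eif6), elongation factors (Eef1 and Eef2) or aminoacyl-tRNA synthetases (1 or 2 letters followed by ars, with or without a closing 1 or 2), in the cerebellum of rat pups whose dams had eaten a diet poor in methyl donors. They were chosen by symbol and not by their values. The pattern takes 235 RefSeq symbols, of which 109 are protein coding and 124 are pseudogenes. A probe could be assigned by accession to 87 of the genes, among 19991 genes and unnamed probes tested. These 87 were 44 initiation factor genes, 12 elongation genes and 31 synthetase genes. The 12 hold 9 elongation factors and 3 genes for enzymes that modify them. Eif5a and Eif5a2 are counted among the 9, since the protein now called eIF5A acts in elongation. The other 22 protein-coding genes, such as Eif2a, Eif4g1, Eif5, Mars2 and Iars2, were not analysed here. All 87 were well above background on each of the 7 arrays, so the filter on dim probes removed none of them.

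Protein synthesis starts when eIF2 brings the initiator tRNA to the small ribosomal subunit, eIF3 and the cap-binding eIF4 proteins bring the mRNA, and the scanning factors help to find the start codon. The exchange factor eIF2B reloads eIF2 with GTP, and 4 kinases that phosphorylate eIF2 alpha turn that step down under stress. During elongation eEF1A delivers charged tRNAs, the eEF1B subunits reload eEF1A with GTP, and eEF2 moves the ribosome along the mRNA, while tRNA synthetases attach each amino acid to its tRNA in the cytosol or in mitochondria. In the brain, inherited defects of eIF2B cause a white matter disease, and defects of many synthetases cause disorders of neurons or myelin.

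The pups were female Wistar rats, 21 days old, and RNA was taken from ground whole cerebellum. Dams of the MDD pups (n = 3; MDD stands for methyl donor deficiency) ate a diet short of vitamin B12 and folate and with less choline, and dams of the CTRL pups (n = 4) ate a standard diet. Both diets ran from 1 month before pregnancy until weaning at day 21, so the pups met them before birth and through the dam's milk. The labels call the pups of a group biological replicates and name no dams or litters, so p-values measure the spread between these pups. Precision is limited by the number of arrays. The unit throughout is the log2 fluorescence intensity on 1-colour arrays relative to the 75th percentile of each array. Values are given as MDD pups 1 to 3 and CTRL pups 1 to 4, and a change is the MDD mean minus the CTRL mean on that scale.

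The arrays read between 74.1% and 79.6% of their spots well above background. CTRL pups 1 to 3 were hybridised in row 1 of the slide, and CTRL pup 4 and the 3 MDD pups in row 2, so diet and slide row overlap in part. Among markers of cell types, 6 of 8 microglial genes passed as higher and 1 as lower, with a summed linear level of 12.9 to 17.9 in MDD pups and 9.02 to 9.62 in CTRL pups, in units of the 75th percentile. Of 10 granule neuron markers 3 passed as lower, and their summed level was 70.9 to 79.6 in MDD pups and 77.6 to 86.97 in CTRL pups. The 8 markers of astrocytes and Bergmann glia summed to 298 to 334 in MDD pups and 248 to 270 in CTRL pups, with 1 passing as higher. Of the Purkinje cell markers 1 of 7 passed as higher and 2 as lower. Of the endothelial and mural ones 1 of 6 passed as higher, and of the oligodendrocyte ones 1 of 7 as lower. Of the choroid plexus, meningeal and erythroid ones 0 of 6, 0 of 5 and 0 of 4 passed. The choroid plexus markers summed to 115 to 273 in MDD pups and 97.9 to 133 in CTRL pups. Erythroid markers summed to 135 to 385 in MDD pups and 104 to 182 in CTRL pups. Both sums overlapped between the groups and spread more widely among MDD pups. At an unadjusted p under 0.05 (limma) were 3 of the 6 choroid plexus markers, 1 of the 5 meningeal and 0 of the 4 erythroid ones. Over all genes and probes 12.7% passed as higher and 7.72% as lower. The forebrain marker Tbr1 was not well above background on any array. These shifts run along with every result below, their part in it was not tested, and in bulk tissue fewer cells of a type and less RNA per cell cannot be told apart.

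Of the 87 genes, 9 were higher and 2 were lower in MDD pups at an adjusted p under 0.05 (limma, Benjamini-Hochberg over all 19991). The higher genes were Eif2b2, Eif3i, Eif4ebp1, Pars2, Eef1g, Eef2, Eef1d, Eef1akmt1 and Eif3d, and the lower genes were Eif4e3 and Nars2. The 9 make up 10.3% of the translation genes, where 12.7% of all genes and probes were called higher, and the 2 make up 2.3%, where 7.72% of all were called lower. By these counts the machinery was called no more often than the array in general. Its median change was 0.057, against -0.028 over all genes and probes, and single genes ranged between -0.81 for Eif4e3 and 1.05 for the imprecisely measured Eef2kmt. The 3 MDD pups lay above all 4 CTRL pups for 22 of the 87 genes and below them for 15, where 20.1% and 16.4% of all genes and probes did so (36.5% in either direction). At an unadjusted p under 0.05 were 32 of the 87, where 38.8% of all were.

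**Figure D1:**
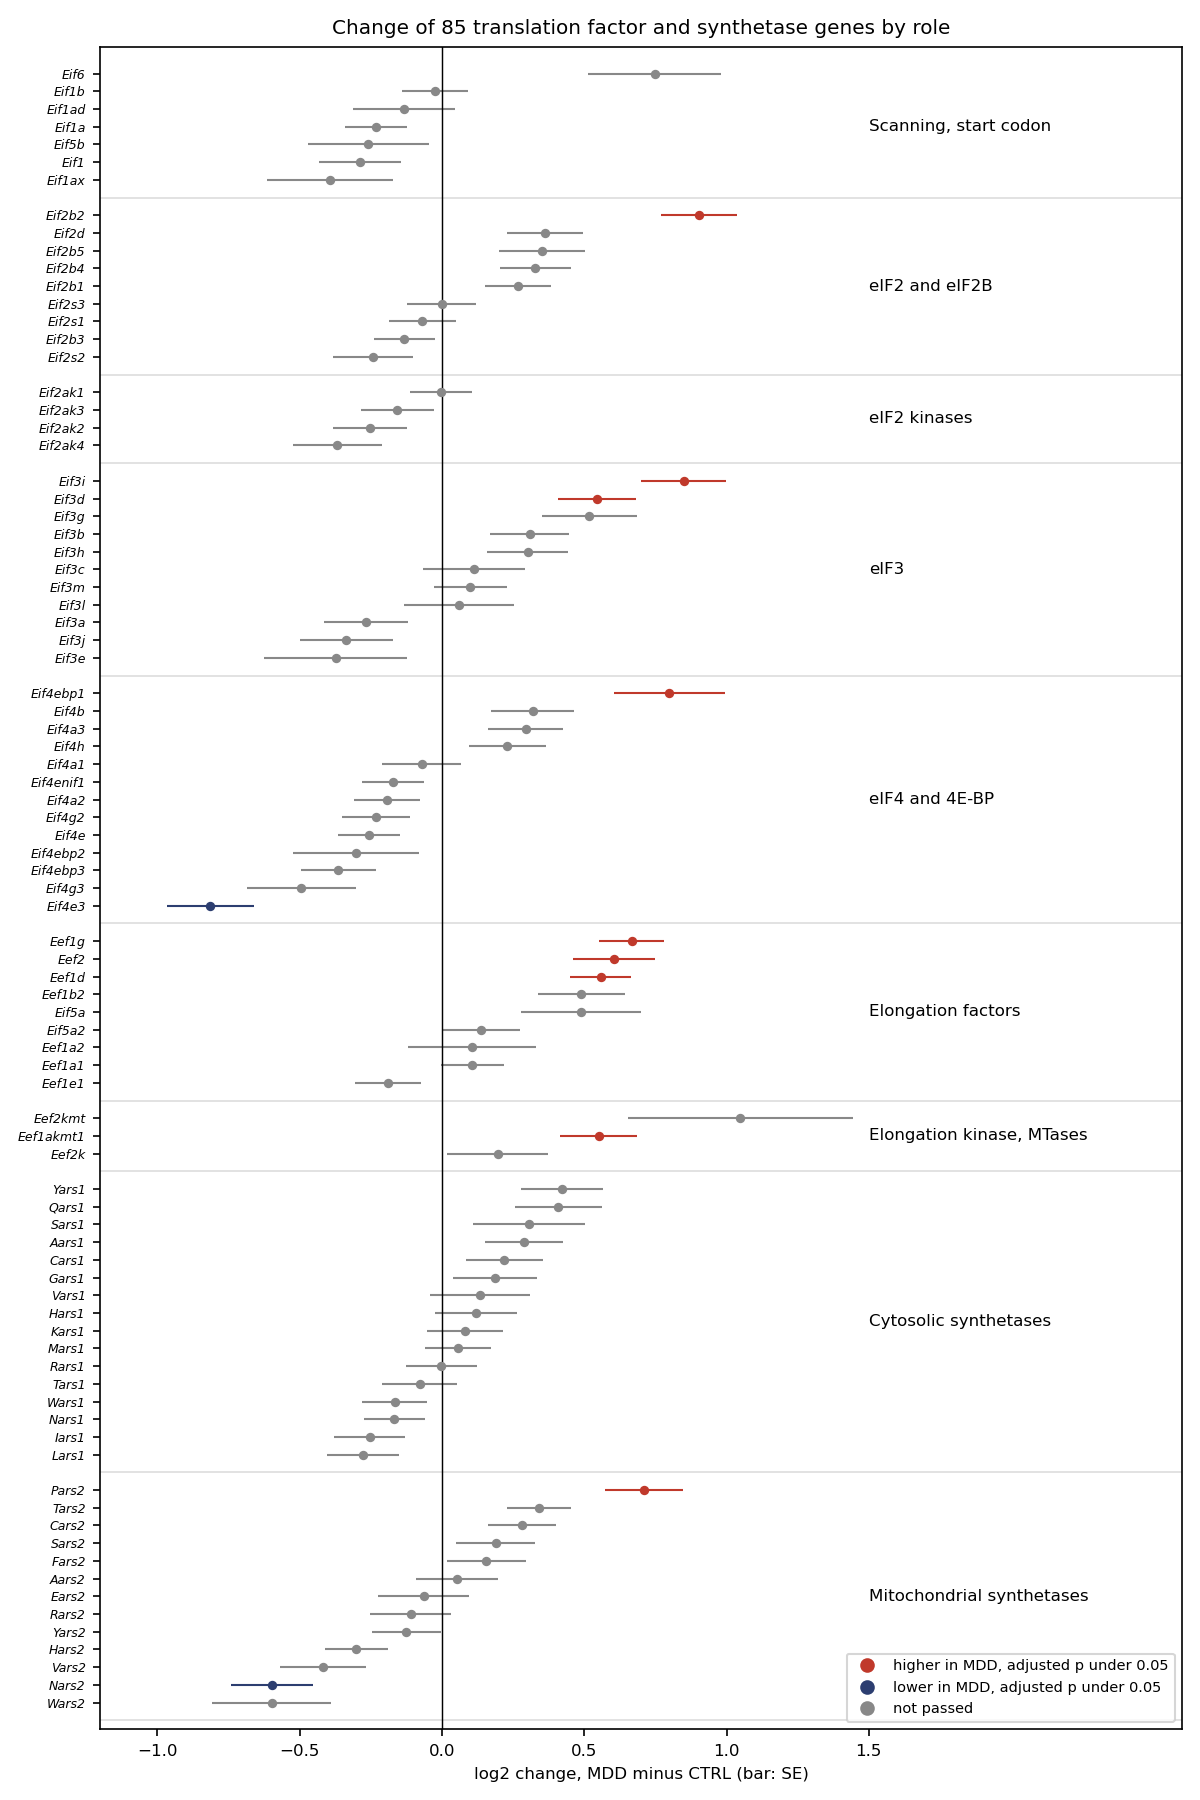
Change of 85 of the 87 genes on the log2 scale (MDD mean minus CTRL mean, horizontal axis; bars are the standard error), grouped by role. The genes that passed sit between 0.55 and 0.90 on the right and at -0.60 and -0.81 on the left, and the elongation factors lie right of 0 apart from Eef1e1.

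The families differed in where their genes lay, beside shares of 12.7% called higher and 7.72% called lower over all genes and probes. The 12 elongation genes had a median change of 0.49, with 11 positive and 4 called higher. That median was 0.19 under quantile normalization, 0.17 in the authors' deposited table and 0.21 with the trend in gene length and signal removed. After that removal the 9 factors alone had a median of 0.068, and the 3 genes for enzymes that modify them 0.52. The 44 initiation genes had a median of -0.07, with 18 positive, 4 called higher and 1 called lower, and the 31 synthetase genes had a median of 0.053, with 16 positive and 1 called in each direction. On single arrays, the median difference of the elongation genes from the CTRL pups was 0.52, 0.26 and 0.59 in the MDD pups, against -0.01, 0.04, 0.05 and -0.09 in the CTRL pups, each CTRL pup being set against the other 3. The initiation genes gave -0.05, -0.04 and -0.02 in MDD pups and between -0.08 and 0.04 in CTRL pups, and the synthetases -0.01, 0.01 and 0.02 in MDD pups and between -0.05 and 0.10 in CTRL pups. All 3 MDD pups thus stood above the CTRL pups in the elongation median, and they overlapped with them in the other families. No test was made of the difference between families.

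**Figure D2:**
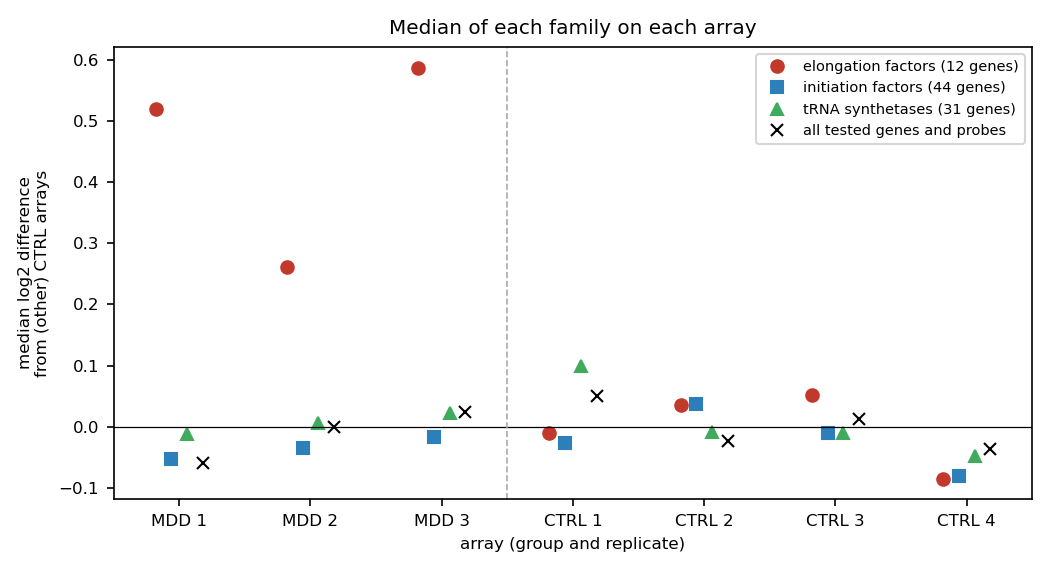
Median log2 difference of each family from the CTRL arrays (vertical axis; a CTRL array is set against the other 3), for each array on the horizontal axis. The elongation family (9 factors and 3 enzymes that modify them) sits at 0.26 to 0.59 on the MDD arrays. On the CTRL arrays it lies between -0.09 and 0.05. The medians of the initiation factors, of the synthetases and of all tested genes stay within 0.10 of 0 on every array.

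Among the 9 elongation factors themselves the 3 calls, all higher, were Eef1g, Eef1d and Eef2, where 12.7% of all genes and probes were called higher. The median change of the 9 was 0.49. With the trend in gene length and signal removed 0 of the 9 were called higher and 1 lower, with a median of 0.068. Eef1g, the gamma subunit that anchors the exchange complex, had values of 4.80, 4.65 and 4.76 in MDD pups and 4.06, 4.12, 4.15 and 3.94 in CTRL pups. Its groups did not overlap, and the change was 0.67 ± 0.11 (SE), or 1.59-fold (adjusted p = 0.011). Eef1d, the delta subunit with exchange activity, gave 4.17, 4.07 and 4.15 in MDD pups against 3.56, 3.62, 3.60 and 3.51 in CTRL pups. This was the tightest pair of groups in the complex, with an SD of 0.05 in each and a change of 0.56 ± 0.11 (adjusted p = 0.0142). Eef1b2, the beta subunit, gave 4.49, 3.96 and 4.27 in MDD pups and 3.75, 3.91, 3.65 and 3.69 in CTRL pups. Its groups also lay apart, but by only a small gap, and its change of 0.49 ± 0.15 did not pass (adjusted p = 0.0535). Eef2, which drives translocation, gave 4.52, 4.27 and 4.5 in MDD pups and 4.06, 3.77, 3.87 and 3.60 in CTRL pups. The groups did not overlap, and Eef2 rose by 0.60 ± 0.14, or 1.52-fold (adjusted p = 0.026).

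The tRNA carriers that the exchange complex serves had smaller changes, and neither passed. Eef1a1, the widely expressed form of eEF1A, gave 5.01, 4.79 and 4.94 in MDD pups and 4.78, 4.82, 4.84 and 4.79 in CTRL pups, which overlap (change 0.11 ± 0.11, adjusted p = 0.506). Eef1a2, the form of mature neurons and muscle, gave 4.54, 4.67 and 5.34 in MDD pups and 4.54, 4.48, 4.99 and 4.96 in CTRL pups, which overlap as well (change 0.11 ± 0.23, adjusted p = 0.755). Within an array the log2 difference of Eef1g from Eef1a1 was -0.21, -0.14 and -0.18 in MDD pups and -0.72, -0.70, -0.70 and -0.85 in CTRL pups, so the changes of the 2 genes differed by 0.56. Eef1d, Eef1b2 and Eef2 differed in change by 0.45, 0.38 and 0.50 from Eef1a1 in the same way, again with no overlap of the groups. Each of these 4 comparisons, among 7 pairs chosen after their values were seen, reached a two-sided exact permutation p of 0.0571, the smallest that 35 splits of the arrays allow (0.0571 after adjustment over the 7). RefSeq lists 20 pseudogenes of Eef1a1 and 16 of Eef1g, whose near-identical transcripts could share these probes, so both genes' values are uncertain in that respect.

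The remaining elongation genes were mixed. Eif5a, the hypusine-bearing factor that eases difficult peptide bonds, gave 3.24, 3.39 and 4.07 in MDD pups and 2.82, 3.12, 3.29 and 3.1 in CTRL pups (change 0.49 ± 0.21, adjusted p = 0.127). Its groups overlapped, with MDD pup 3 well above the others. Eef1e1 was the one negative gene at -0.19, and despite its symbol its product is a scaffold of the multisynthetase complex. Eef1akmt1, which methylates a lysine of eEF1A, gave -0.64, -0.66 and -0.30 in MDD pups and -1.19, -0.94, -1.06 and -1.12 in CTRL pups. Its groups lay apart, and it rose by 0.55 ± 0.14, or 1.47-fold (adjusted p = 0.0281). Eef2kmt, the corresponding enzyme for eEF2, was dim and scattered, with -3.54, -3.99 and -2.65 in MDD pups and -3.93, -4.93, -3.88 and -5.05 in CTRL pups (change 1.05 ± 0.40, adjusted p = 0.0902). Eef2k, the kinase that inhibits eEF2, had a change of 0.20 ± 0.18 with overlapping groups (adjusted p = 0.44).

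Many elongation factor mRNAs begin with a run of pyrimidines, the TOP element through which growth signalling controls their translation. A search for a run of at least 5 pyrimidines that begins with C within 10 bases of the annotated start found one in 4 of 8 elongation factor promoters, against 27.3% of all promoters in the RefSeq table of the assembly GRCr8. The 4 stretches are shown to set the carriers beside their changes, with the run in capitals and the strand of the gene read 5′ to 3′. They lie at chr9:72074067-72074120 (plus strand) for Eef1b2, chr8:88225040-88225096 (minus) for Eef1a1, chr2:113657806-113657862 (plus) for Eif5a2 and chr17:26354215-26354273 (plus) for Eef1e1.
Eef1b2: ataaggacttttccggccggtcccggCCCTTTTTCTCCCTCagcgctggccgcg
Eef1a1: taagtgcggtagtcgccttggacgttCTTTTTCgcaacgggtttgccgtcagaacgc
Eif5a2: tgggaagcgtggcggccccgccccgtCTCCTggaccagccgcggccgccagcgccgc
Eef1e1: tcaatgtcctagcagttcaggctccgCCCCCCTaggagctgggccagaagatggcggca
The changes of the 4 carriers were 0.49, 0.11, 0.14 and -0.19 in the order printed, and none of them passed. The methyltransferase gene Eef1akmt1, not counted among the 8, also held such a run, of 12 bases. It did pass, with a change of 0.55 (adjusted p = 0.0281 by limma). The called genes Eef1g and Eef2 had no such run in this window, nor had Eef1a2 and Eif5a, and the table holds no entry for Eef1d. A match or a miss describes only the letters at the annotated start. Eef1g and Eef2 are still counted on the list of TOP mRNAs used further below.

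**Figure D3:**
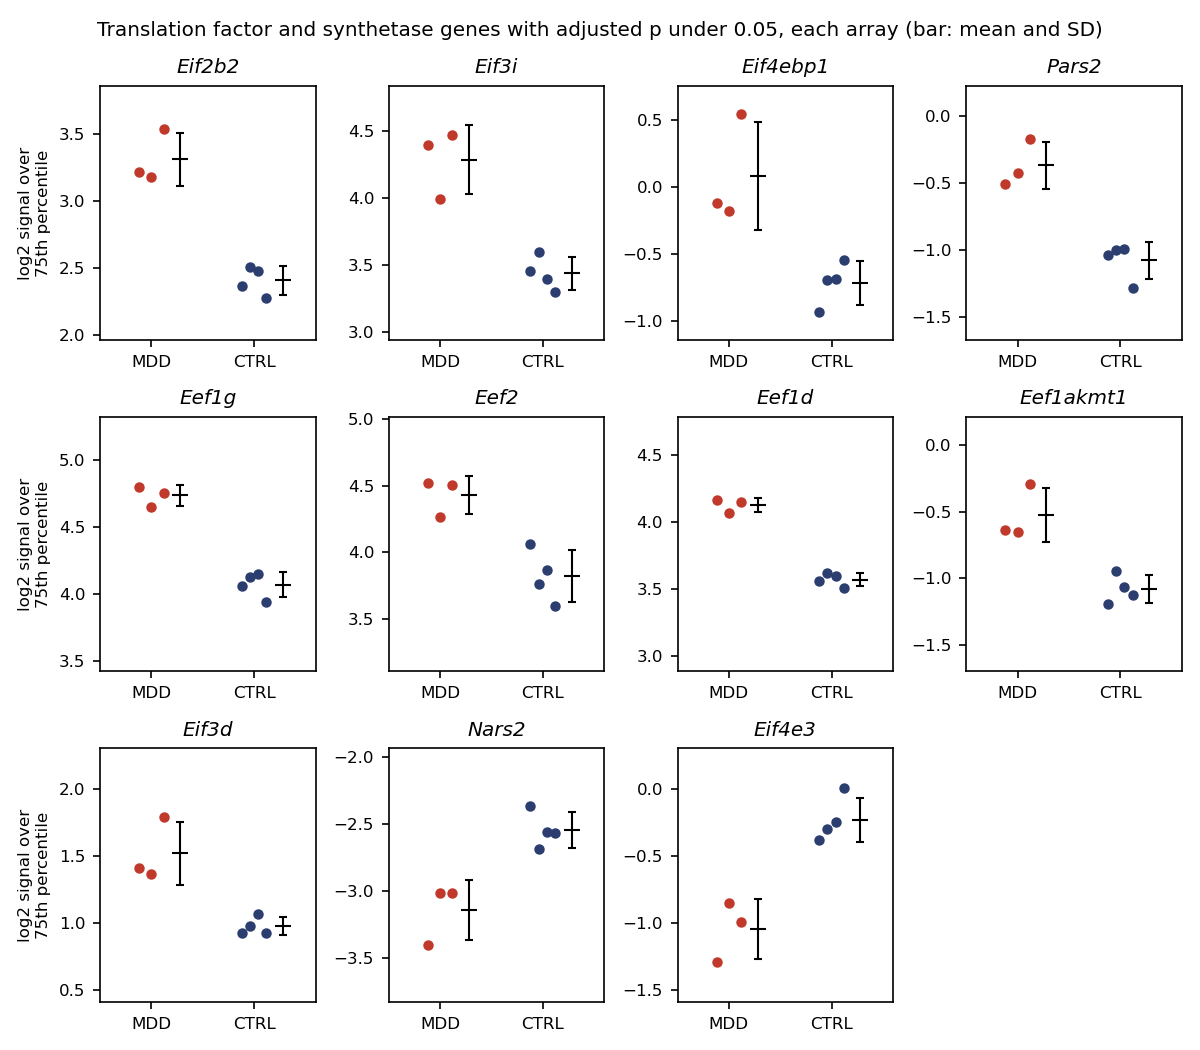
Log2 signal relative to the 75th percentile (vertical axis, the same span in each panel) on each array for the 11 genes that passed, with 3 MDD pups on the left, 4 CTRL pups on the right and the mean and SD beside them. In none of the 11 panels do the groups overlap, and the MDD pups spread more widely than the CTRL pups for Eif4ebp1 and Eif3d.

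In the delivery of the initiator tRNA, the 1 call belonged to the exchange factor eIF2B and none to its substrate eIF2. Eif2b2, the beta subunit of eIF2B, had the largest rise among the genes that passed, with 3.22, 3.18 and 3.54 in MDD pups and 2.37, 2.51, 2.48 and 2.28 in CTRL pups. The groups were separated by more than their own ranges, and the change was 0.90 ± 0.13, or 1.87-fold (adjusted p = 0.00991). The other eIF2B genes had smaller changes that did not pass: 0.27 ± 0.12 for Eif2b1, 0.33 ± 0.13 for Eif2b4 and 0.35 ± 0.15 for Eif2b5 (adjusted p between 0.0943 and 0.125). For each of these 3 all MDD pups still lay above all CTRL pups. Eif2b3, the gamma subunit, ran the other way, with -0.78, -0.89 and -0.79 in MDD pups and -0.68, -0.61, -0.69 and -0.78 in CTRL pups (change -0.13 ± 0.11, adjusted p = 0.397).

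None of the 3 eIF2 subunit genes passed, and their median change was -0.07. Eif2s1, the alpha subunit that the stress kinases phosphorylate, gave 1.63, 1.75 and 1.73 in MDD pups and 1.92, 1.80, 1.71 and 1.66 in CTRL pups, which overlap (change -0.07 ± 0.12, adjusted p = 0.691). Relative to Eif2s1 on the same array, Eif2b2 was 1.59, 1.43 and 1.81 in MDD pups and 0.45, 0.71, 0.77 and 0.62 in CTRL pups. This unequal relative change of 0.97 had a two-sided exact permutation p of 0.0571, the smallest possible, and 0.0571 adjusted over the 7 pairs. The 7 pairs were chosen after their values were seen, so this p is no independent test. Eif2d, which can place the initiator tRNA without eIF2, gave 0.37, 0.07 and 0.51 in MDD pups and -0.06, -0.03, 0.01 and -0.09 in CTRL pups, which do not overlap (change 0.36 ± 0.13, adjusted p = 0.0846). The remaining subunit genes, Eif2s2 and Eif2s3, were at -0.24 and -0.001 with overlapping groups.

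The 4 kinases of eIF2 alpha had no call in either direction, and all 4 changes were below 0 with a median of -0.21 and 1 of them at an unadjusted p under 0.05. Eif2ak4 (GCN2, which senses uncharged tRNA) gave -1.14, -1.04 and -1.48 in MDD pups and -0.58, -0.95, -0.92 and -0.97 in CTRL pups, with separated groups (change -0.37 ± 0.16, unadjusted p = 0.0465 and adjusted p = 0.123 by limma). Eif2ak2 (PKR, the sensor of double-stranded RNA) was at -0.25 ± 0.13, Eif2ak3 (PERK, the endoplasmic reticulum sensor) at -0.16 ± 0.13 and Eif2ak1 (HRI, the haem sensor) at -0.002 ± 0.11. The 2 probes of Eif2ak2 disagreed in sign, at -0.25 and 0.071, the one such case among the 22 genes with several probes.

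Within eIF3, the large scaffold that links the mRNA to the small subunit, 2 of 11 measured subunit genes passed, both higher, and the median was 0.11. With the trend in gene length and signal removed neither passed, and the median was 0.021. Eif3i gave 4.39, 3.99 and 4.47 in MDD pups and 3.46, 3.59, 3.4 and 3.3 in CTRL pups. The groups lay well apart, with a change of 0.85 ± 0.15, or 1.80-fold (adjusted p = 0.012). Eif3d, a subunit that can bind the cap of selected mRNAs, gave 1.41, 1.37 and 1.79 in MDD pups and 0.93, 0.98, 1.07 and 0.93 in CTRL pups, again without overlap (change 0.55 ± 0.14, adjusted p = 0.0298). Eif3g was close behind, with 0.57, 0.73 and 1.22 in MDD pups against 0.23, 0.31, 0.44 and 0.30 in CTRL pups (change 0.52 ± 0.17, adjusted p = 0.0596), and Eif3b had separated groups at 0.31 ± 0.14 (adjusted p = 0.138). The other subunits spanned 0, with Eif3h at 0.30, Eif3c at 0.11, Eif3m at 0.10, Eif3l at 0.06, Eif3a at -0.27, Eif3j at -0.34 and Eif3e at -0.37, all with overlapping groups. For 4 of the 11 genes the MDD pups lay above all CTRL pups, and for 0 below. Over all genes and probes 20.1% and 16.4% did so, and 12.7% were called higher.

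The cap-binding step held a call in each direction. Eif4ebp1, whose product binds eIF4E and blocks it until mTORC1 phosphorylates it, gave -0.12, -0.18 and 0.54 in MDD pups and -0.94, -0.69, -0.69 and -0.55 in CTRL pups. The groups did not overlap, and it rose by 0.80 ± 0.20, or 1.74-fold (adjusted p = 0.0278), with MDD pup 3 the highest. Its relatives had negative changes that did not pass, at -0.30 ± 0.22 for Eif4ebp2, the main form of the brain, and -0.36 ± 0.13 for Eif4ebp3 (adjusted p = 0.341 and 0.0828). Relative to Eif4ebp2 on the same array, Eif4ebp1 was -0.28, -0.94 and 0.81 in MDD pups and -1.5, -1.1, -1.21 and -1.16 in CTRL pups. This unequal relative change of 1.1 had a two-sided exact permutation p of 0.0571, the smallest possible, and 0.0571 adjusted over the 7 pairs. The 7 pairs were chosen after their values were seen, so this p is no independent test.

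Eif4e3, an unusual member of the cap-binding eIF4E family, was the lowest of all 87 genes, with -1.29, -0.85 and -0.99 in MDD pups and -0.38, -0.30, -0.25 and 0.003 in CTRL pups. No MDD pup reached a CTRL pup, and Eif4e3 fell by 0.81 on the log2 scale (SE 0.15, 1.76-fold lower, adjusted p = 0.0136). A second probe gave -0.49. Eif4e itself, the main cap-binding protein, gave -0.59, -0.59 and -0.42 in MDD pups and -0.33, -0.22, -0.31 and -0.26 in CTRL pups, with separated groups but a change of -0.26 ± 0.11 that did not pass (adjusted p = 0.122). Its second, dimmer probe gave a larger change of -0.61 (adjusted p = 0.0798 over probes). Eif4g3, a scaffold of the cap complex, was at -0.49 ± 0.19 (adjusted p = 0.0953), with overlapping groups. Of the helicase genes, Eif4a1 and Eif4a2, which unwind mRNA at the cap, were at -0.07 ± 0.14 and -0.19 ± 0.12 and Eif4a3, the exon junction helicase, at 0.29 ± 0.13, and the helicase partners Eif4b and Eif4h were at 0.32 and 0.23 (none passed). A second, dimmer probe of Eif4b gave 0.42 and an adjusted p under the threshold (0.0461 over probes, by limma). The factors Eif4g2, which works without eIF4E, and Eif4enif1, which carries eIF4E into the nucleus, were at -0.23 and -0.17. In the cap-binding step 1 of 13 genes passed in each direction, where 12.7% of all genes and probes were called higher and 7.72% lower. Of the 13 changes 9 were negative, and the median was -0.19. With the trend in gene length and signal removed 1 was called higher and 4 lower, with a median of -0.29.

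Of the 7 genes of scanning, start codon choice and subunit joining none passed (1 at an unadjusted p under 0.05), 6 had negative changes and the median was -0.23. With the trend in gene length and signal removed 0 were called higher and 1 lower, with a median of -0.32. Eif1, which guards start codon choice, gave 2.85, 3.15 and 3.34 in MDD pups and 3.3, 3.4, 3.51 and 3.4 in CTRL pups, which overlap (change -0.29 ± 0.14, adjusted p = 0.172). Eif1a and Eif1ax, 2 forms of the factor that works beside it, were at -0.23 ± 0.11 and -0.39 ± 0.22 (adjusted p = 0.152 and 0.219). A second, dimmer probe of Eif1ax gave -0.55 and an adjusted p under the threshold (0.0485 over probes, by limma). Eif5b, which joins the subunits, was at -0.26, and Eif1ad and Eif1b, relatives of the start codon factors, at -0.13 and -0.02. The exception was Eif6, which keeps free large subunits from joining and acts in their maturation: it gave 3.03, 3.06 and 3.97 in MDD pups and 2.44, 2.53, 2.78 and 2.67 in CTRL pups. The groups did not overlap, but MDD pup 3 stood far above the rest and the change of 0.75 ± 0.23 did not pass (adjusted p = 0.0541).

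None of the 17 cytosolic synthetase genes passed, against the 20.4% of all genes and probes called in either direction. Their median change was 0.082, and 3 of them had an unadjusted p under 0.05. Yars1, for tyrosine, gave 0.06, 0.05 and 0.39 in MDD pups and -0.18, -0.19, -0.16 and -0.49 in CTRL pups, without overlap (change 0.42 ± 0.14, adjusted p = 0.0691). Qars1, for glutamine, was at 0.41 ± 0.15, also with separated groups (adjusted p = 0.0882). Lars1, the leucine enzyme that also reports leucine to mTORC1, was at -0.28 ± 0.12 with separated groups (adjusted p = 0.139). Mars1, which charges methionine, the amino acid that the folate and vitamin B12 cycle regenerates, gave 1.53, 1.54 and 1.48 in MDD pups and 1.61, 1.47, 1.43 and 1.32 in CTRL pups, which overlap (change 0.057 ± 0.12, adjusted p = 0.746). Of the others, Sars1, Aars1, Cars1, Gars1, Vars1, Hars1 and Kars1 lay between 0.08 and 0.30, and Rars1, Tars1, Wars1, Nars1 and Iars1 between -0.25 and -0.002. Nars1 and Iars1 had all MDD pups below all CTRL pups, at -0.17 ± 0.11 and -0.25 ± 0.12 (adjusted p = 0.277 and 0.167). The 7 synthetases that reside in the multisynthetase complex had a median of -0.002 and the 10 outside it 0.16.

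The cytosolic synthetases are known targets of ATF4, the transcription factor that the eIF2 alpha kinases induce, and ATF4 with its partners binds the element TGATGNAA. Searching the 250 bases before and 50 bases after the annotated starts on both strands found it in 7 of 14 cytosolic synthetase promoters (50%), in 0 of 13 mitochondrial ones and in 2 of 52 promoters of initiation and elongation factors. It occurs in 3.98% of all 33469 promoters in the RefSeq table (GRCr8), which has entries for 77 of the 87 genes. The following stretches, 5′ to 3′ on the strand of the gene with the element in capitals (TTGCATCA is its reverse complement), show how alike the sites are.
Mars1: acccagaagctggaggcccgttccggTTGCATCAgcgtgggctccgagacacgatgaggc
Tars1: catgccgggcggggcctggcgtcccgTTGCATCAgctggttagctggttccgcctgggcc
Iars1: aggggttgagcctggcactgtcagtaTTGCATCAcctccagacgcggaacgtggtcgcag
Nars1: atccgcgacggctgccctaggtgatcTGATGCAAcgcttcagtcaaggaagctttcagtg
Aars1: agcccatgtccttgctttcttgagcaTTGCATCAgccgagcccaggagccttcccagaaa
They lie at chr7:65023737-65023796 (minus strand), chr2:62114796-62114855 (minus), chr17:15193643-15193702 (minus), chr18:60275763-60275822 (minus) and chr19:55908344-55908403 (plus). The element begins 17, 27, 24, 14 and 112 bases before the start in the order printed. The other carriers were Cars1 and Yars1, and Aars1 holds a second copy 9 bases after its start. The 7 genes with the element had a median change of 0.057, with 4 positive and a range of -0.25 to 0.42, and the 7 genes without it had a median of 0.12, with 5 positive. The 2 sets overlapped over nearly their whole range, and the presence of these letters says nothing of whether a factor bound them.

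Among the 14 mitochondrial synthetase genes 1 passed in each direction, where 12.7% of all genes and probes were called higher and 7.72% lower. The median of the 14 was -0.069. Pars2, for proline, gave -0.51, -0.43 and -0.17 in MDD pups and -1.035, -0.997, -0.995 and -1.28 in CTRL pups. The groups did not overlap, and the change was 0.71 ± 0.14, or 1.64-fold (adjusted p = 0.0146), with 0.55 at a second probe. Nars2, for asparagine, was the other, with -3.4, -3.01 and -3.02 in MDD pups and -2.36, -2.69, -2.56 and -2.57 in CTRL pups. It fell by 0.60 on the log2 scale (SE 0.14, 1.51-fold lower, adjusted p = 0.027), again with no overlap. Wars2, for tryptophan, had the same size at -0.60 but a larger error of 0.21 (adjusted p = 0.0733), and Tars2, for threonine, was at 0.34 ± 0.11 with separated groups (adjusted p = 0.0614). Separated groups that did not pass were also seen for Cars2 at 0.28, higher, and Hars2 at -0.30, lower (adjusted p = 0.121 and 0.0854). Vars2 was at -0.42 ± 0.15 with overlapping groups (adjusted p = 0.0804), and Sars2, Fars2, Aars2, Ears2, Rars2 and Yars2 lay between -0.12 and 0.19. A second, dimmer probe of Ears2 gave -0.72 (adjusted p = 0.038 over probes, by limma). It was well above background on only 3 arrays. The cytosolic enzyme for proline is encoded by a gene outside the symbol pattern.

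Lists of the neighbouring machinery give the setting, beside shares of 12.7% called higher and 7.72% called lower over all genes and probes. Of 77 cytosolic ribosomal protein genes 62 were called higher and 0 lower, with a median change of 0.73, and of 64 mitochondrial ones 24 were called higher, with a median of 0.31. Among 8 synthetase and scaffold genes whose symbols the pattern does not take, 2 passed, both higher: Farsa, a subunit of the phenylalanine enzyme, at 0.60 ± 0.15 (adjusted p = 0.027) and the scaffold gene Aimp2 at 0.46 ± 0.13 (adjusted p = 0.0443). Among 8 mitochondrial translation factor genes 2 were higher, the elongation factor gene Tufm at 0.51 ± 0.13 and the initiation factor gene Mtif3 at 0.49 ± 0.14, while Mtif2 was at -0.39 ± 0.12 (adjusted p = 0.0295, 0.0404 and 0.0523). Of 10 release and recycling genes only Pelo, which rescues stalled ribosomes, passed, at 0.57 ± 0.12 (adjusted p = 0.0173).

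The enzymes that modify the elongation factors included 2 calls among 8. Over all genes and probes 12.7% were called higher and 7.72% lower. Dohh, which completes the hypusine of eIF5A, was higher by 0.76 ± 0.14 (adjusted p = 0.0121), and Dph1, which starts the diphthamide of eEF2, by 0.53 ± 0.14 (adjusted p = 0.0363). Of 14 measured genes with TOP mRNAs outside the ribosomal proteins 4 were higher, namely Rack1, a ribosome-bound scaffold, at 1.05 ± 0.20 (adjusted p = 0.0148) and the 3 elongation genes already given. In the mTORC1 pathway, which controls 4E-BP1 and TOP mRNAs, 5 of 24 measured genes were higher and 1 lower, with a median of -0.02. Lamtor2 and Lamtor5, parts of the lysosomal anchor, were at 0.82 ± 0.12 and 0.83 ± 0.15 (adjusted p = 0.00991 and 0.0134). Castor1, an arginine sensor, was at 0.77 ± 0.16 (adjusted p = 0.0186). Also higher were Lamtor4 at 1.09 ± 0.25 and Nprl2 at 0.52 ± 0.13 (adjusted p = 0.0243 and 0.0316). The lower gene was Rps6kb1, at -0.49 ± 0.14 (adjusted p = 0.04).

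Of 29 measured genes on the list of ATF4 and its targets 5 were higher and 2 lower, with a median of 0.27. Over all genes and probes 12.7% were called higher and 7.72% lower. The serine pathway enzymes Phgdh and Psph were higher by 0.92 ± 0.17 and 0.62 ± 0.13, and the mitochondrial folate enzyme Aldh1l2 by 0.95 ± 0.16 (adjusted p = 0.0134, 0.0176 and 0.0108). These 3 also belong to serine and folate metabolism. Slc3a2 was higher too, with separated groups, by 0.49 ± 0.12 (adjusted p = 0.0258), and was well above background on every array. Atf4 itself was at -0.01 ± 0.13, Asns, its asparagine synthetase target, at 0.17 ± 0.16, and the stress factor gene Ddit3 at 0.30 ± 0.13, and none of them passed (adjusted p = 0.946, 0.451 and 0.121). Both genes called lower, Cth and Fgf21, were well above background on at most 1 of the 3 MDD arrays, so their MDD level is poorly measured. Stc2, one of the 5 higher genes, was well above background on 2 of 3 MDD and 2 of 4 CTRL arrays. Slc3a2 and these last 6 genes were named after their values were seen.

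Shorter genes tended to higher changes throughout the array, and the translation genes followed that trend. Spearman's rho between change and genomic length was -0.39 over the 87 genes and -0.40 over all 11966 named genes, as a description across genes that share the same arrays. With 3 length classes that hold nearly equal numbers of named genes, 4 of the 26 translation genes in the shortest class and 5 of the 41 in the middle class (above 11609 bases) were called higher and none lower, while 2 of the 20 in the longest class (above 36406 bases) were called lower and none higher. Over named genes, 22.7%, 9.26% and 2.26% were called higher in the 3 classes, short to long, and 2.51%, 4.94% and 12.6% lower. The medians of the translation genes were 0.28, 0.06 and -0.21 in that order, against 0.21, -0.002 and -0.20 over named genes. Both genes called lower are long, at 148597 bases for Eif4e3 and 111632 for Nars2. Change also rose with mean signal, with a rho of 0.36 over the 87 genes and 0.24 over named genes. Among the 12 elongation genes alone rho was 0.084 with length and -0.16 with signal.

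**Figure D4:**
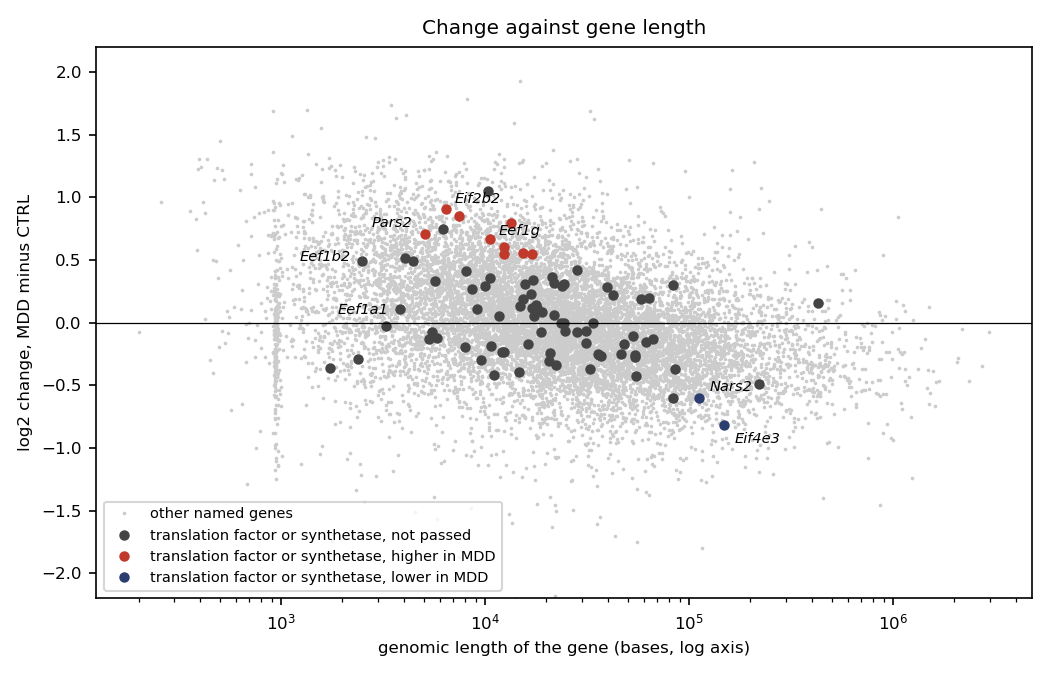
Change on the log2 scale (MDD minus CTRL, vertical axis) against genomic length in bases (horizontal axis, logarithmic) for all named genes (light grey; 8 lie outside the plotted range of 2.2) and for the 87 translation genes. The red points of genes called higher lie among the shorter genes and the 2 blue points called lower among the longer ones, inside the cloud of all genes.

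The calls depended on the scaling of the arrays and on their position. The groups of the 11 called genes lay apart, so leaving out a pup, blocking or using row 2 alone could not change a sign. All 11 kept their sign in each of 20 alternative analyses. Eif2b2, Pars2 and Eif4e3 also passed in every one other than those limited to or blocked by the slide row and the one blocked by replicate number, where 0 of the 87 passed. In row 2 alone, with CTRL pup 4 as the single control and its spread taken to be that of the MDD pups, the changes were of like size, for example 1.03 for Eif2b2, 0.99 for Eif3i, 0.92 for Pars2, 0.79 for Eef1g, 0.83 for Eef2 and -1.05 for Eif4e3. With each pup left out in turn, Eif2b2, Eif3i, Pars2, Eef1g and Eif4e3 passed in all 7 fits. Eef1d did not pass without CTRL pup 4 (0.54, adjusted p = 0.054). Eif4ebp1 and Eif3d did not pass without any one of the CTRL pups, with changes of 0.73 to 0.86 and of 0.53 to 0.58 (adjusted p = 0.0611 to 0.0662 and 0.0638 to 0.0828). Eef2 was lost without MDD pup 1 or 3 or CTRL pup 2, 3 or 4 (0.53 to 0.62, adjusted p = 0.0585 to 0.0733). Eef1akmt1 was lost without MDD pup 3 or any one CTRL pup (0.43 to 0.60, adjusted p = 0.0506 to 0.0791), and Nars2 without MDD pup 1 or CTRL pup 1, 3 or 4 (-0.61 to -0.47, adjusted p = 0.0621 to 0.0713). Without MDD pup 2 further genes passed, among them Eef1b2 at 0.63, Eif6 at 0.89, Eif4g3 at -0.72 and Eif4ebp3 at -0.46 (adjusted p = 0.0208, 0.042, 0.0157 and 0.0447). Eif3i, Eif3d and Nars2 did not pass with the trend in gene length and signal removed, at 0.45, 0.37 and -0.34 (adjusted p = 0.0507, 0.0793 and 0.077). The 3 elongation calls depended on more of the scalings: under quantile normalization Eef1g, Eef2 and Eef1d were at 0.24, 0.20 and 0.18, in the authors' deposited table at 0.17, 0.19 and 0.18, and after removal of the trend with gene length and signal at 0.28, 0.26 and 0.27, and passed in none of these. Eef1a1 changed direction, to -0.34 in the authors' deposited table (adjusted p = 0.0415) and -0.42 with the trend removed (adjusted p = 0.0356), and it lay below Eef1g, Eef1d and Eef1b2 in change under each of these scalings.

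**Figure D5:**
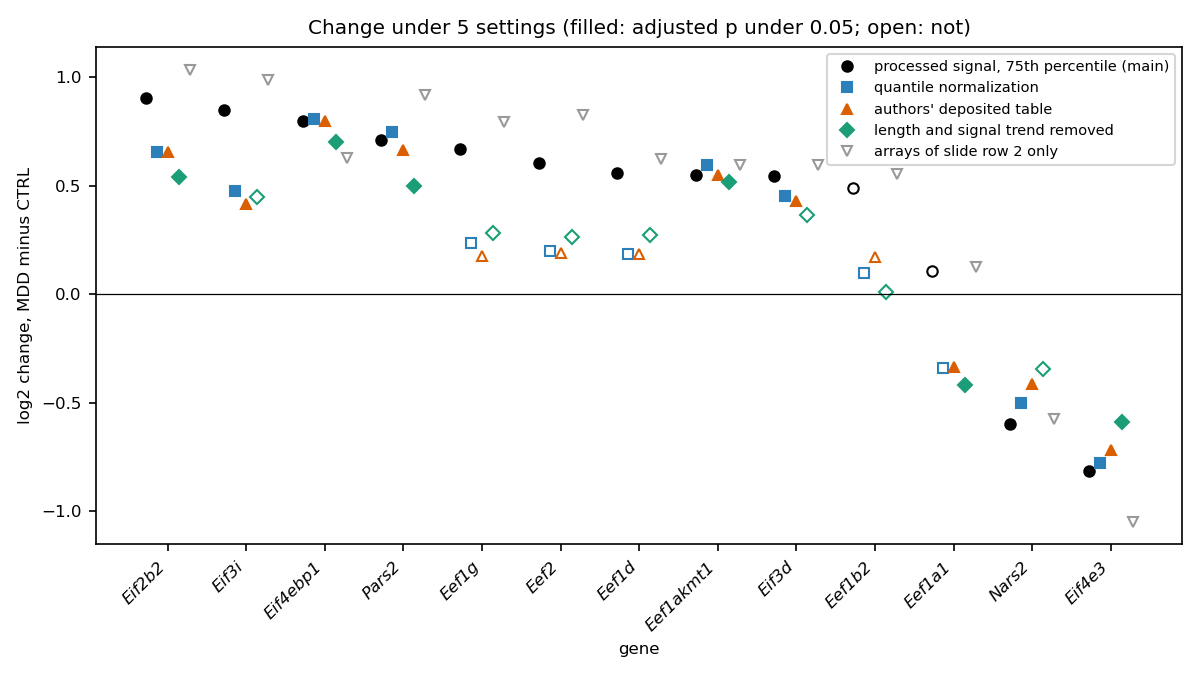
Change on the log2 scale (vertical axis) of the 11 called genes and of Eef1b2 and Eef1a1 under the 75th percentile scaling and 4 alternatives, with filled symbols for an adjusted p under 0.05 and open symbols for others. Eif2b2, Eif4ebp1, Pars2, Eef1akmt1 and Eif4e3 stay filled in 4 of the 5, Eef1g, Eef2 and Eef1d lie at 0.28 or less under 3 alternatives, and Eef1a1 crosses 0.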

How the data were processed

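Per the labels, cerebellar RNA was amplified, dyed with Cy3 and measured on 1-colour rat arrays from Agilent. The deposited scanner tables hold spot intensities from Feature Extraction 10.7.3.1 on a grid of assembly rn4, background-subtracted within the array, per the file headers. They also hold other columns, the 0 or 1 flags of the scanner software. A further table holds the authors' normalized intensity values, with columns named by group. The sources used here do not give its normalization, and its log2 means followed the raw median signal (correlation 0.999985 over probes).

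The processed signal was taken to log2 and the 75th percentile of its array (1140 to 2105 intensity units) subtracted. Control and outlier-flagged spots were left out and spots of a probe averaged. A probe needed a signal well above background on 3 or more of the 7 arrays, on at least 50% of its spots, which 22255 of 30367 met. Symbols came from a RefSeq table (GRCr8) by accession, and the brightest kept probe stood for a gene. Promoters came from RefSeq. The comparison used lmFit and eBayes of limma 3.58.1 (R 4.3.3), two-sided, with Benjamini-Hochberg adjustment over 19991 and a threshold of 0.05, with a few exact permutation tests in SciPy 1.17.1. The test was tried on simulated data of 19991 genes, where it found 52 of 100 log2 changes of 1 and 94 of 100 of 2, with 5 false calls. Far fewer genes were changed there than the 4081 called in the real data, so these rates do not carry over.

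Alternatives were other scalings, normexp (offset 50, on median spot signals since no mean signal was used), the authors' table, 2 filters, the mean of probes, slide row or replicate number as a block, slide row 2 alone, array weights, a trended prior, removal, per array, of the trend in gene length and signal, and each array left out. All 7 arrays share 1 slide and 1 scan time. Genes named are those that passed, up to 4 per role by smallest p, some with a fixed interest (eIF2 kinases, eIF2B, 4E-BPs, eEF1A, methyltransferases, Mars1) and up to 3 per related list. Further genes are named where a count or contrast needs them, after their values were seen. Some genes that the rule names are not reported here. The members, lists and alternatives were chosen with earlier results of these data known.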

Additional observations from a re-analysis of the deposited data

Results flagged for a closer look

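Within the 4 CTRL pups, 5 of 65 groups of values examined held a pup far from the other 3 by Dixon's test, and chance alone picks about 1 in 20 groups. The lowest CTRL value of Pars2, -1.28 in CTRL pup 4, stood below the others at -1.035 to -0.995, and without that pup the change was 0.64 and still passed. Eif2ak4 was highest in CTRL pup 1 at -0.58, against -0.97 to -0.92. Yars1 was lowest in CTRL pup 4 at -0.49, against -0.19 to -0.16. Lars1 was highest in CTRL pup 1 at -0.21, against -0.45 to -0.43, and Tars2 was highest there at 1.95, against 1.93 in the other 3.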

How the results depend on the processing

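Of the 87 genes 9 were higher and 2 lower, with a median change of 0.057. Higher and lower counts were 6 and 7 under quantile normalization, 6 and 9 in the authors' deposited table, 4 and 7 with the trend in gene length and signal removed, 5 and 1 with no filter on dim probes and 14 and 3 with a trended robust prior. Over all genes and probes tested, the higher and lower shares in these 5 were 11% and 7%, 12% and 8.85%, 6.68% and 4.81%, 4.39% and 1.41%, and 15% and 9.44%. The counts were 0 and 0 with the slide row as a block (14 genes at an unadjusted p under 0.05), in row 2 alone (7) and with the replicate number as a block (16). Over all genes and probes limma called 1, 7 and 0 in these 3. Deviations of same-numbered pups from their group means had correlations of 0.0947, -0.179 and 0.223, and those of differently numbered pups -0.225 to 0.154. So few arrays cannot show whether the replicate numbers pair the pups. Leaving out each pup in turn gave 4 to 12 higher and 1 to 6 lower, with 4 and 1 without CTRL pup 4 and 12 and 6 without MDD pup 2. The shares over all genes and probes moved too, to 4% and 1.12% without CTRL pup 4 and 14.5% and 11.7% without MDD pup 2. The median change was -0.061 under quantile normalization, 0.10 with median scaling, -0.053 in the authors' table, -0.0043 with array weights, -0.011 with the trend removed and 0.0048 to 0.096 with 1 pup left out. Eef1a1 reversed to -0.34 in the authors' table and -0.42 with the trend removed. The causes of these shifts were not tested, beyond the smaller samples of row 2 and of the leave-one-out fits. A sign change in a gene that passed in neither analysis occurred 22 times over 65 genes and 20 alternatives. Of all calls 62.2% were higher, against 72.6% after normexp and 57.5% in the authors' table. In simulation 52 of 100 changes of 1 on the log2 scale were recovered, but far fewer genes were changed there than the 20.4% called here. That rate therefore does not describe these arrays. With 3 and 4 pups, a gene that did not pass is not shown to be unchanged.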
